A study of Mus musculus with 24 samples.

Results

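The genes described here encode the signaling chains of the T cell receptor and the proteins that act first when it is engaged: Cd3d, Cd3e, Cd3g, Cd247, Cd4, Lck, Fyn, Zap70 and Lat. They were chosen by name, not by their values, and all 9 are on the array, with 15 of its 25697 probes. Cd247 has 3 probes that the deposited table lists under the older symbol Cd3z, and they were matched by gene ID, while the other 8 genes stand under their own symbols. Of the 15 probes, 14 passed the filter for detection and 12 were detected on all 24 arrays. Where a gene had several probes, the one with the highest mean over all arrays stood for it, and the others are given beside it.

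CD4+ T cells came from mice aged 4 to 6 weeks, either WT or lacking BAF180, and each of 4 states was measured on 3 arrays per genotype. Resting naïve cells were isolated from spleen and lymph nodes by a CD4 and CD62L kit to 95% purity, and stimulated naïve cells were kept on plate-bound anti-CD3 at 1 μg/ml and anti-CD28 at 2 μg/ml for 24 h. Resting Th2 cells were grown from naïve cells on the same antibodies with IL-4 at 10 ng/ml, anti-IFN-γ at 10 μg/ml and IL-2 at 100 U/ml added at 24 h, and for the stimulated Th2 state PMA (50 ng/ml) plus ionomycin (500 ng/ml) was added over 1.5 h. BAF180, encoded by Pbrm1, is a subunit of the PBAF chromatin remodeling complex. In the deficient mice its floxed gene was deleted by a Cre that Cd4 promoter and enhancer sequences drive late in thymocyte development. The labels give the strain of both genotypes as Balb/c, while the methods describe another background, and the mice are described as pairs, one of each genotype. The labels do not say which arrays share a mouse or a pair.

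The T cell receptor has no signaling domain of its own. Its ligand-binding chains are held in a complex with the CD3 delta, epsilon and gamma chains and the zeta chain made by Cd247, whose cytoplasmic tails carry tyrosine motifs called ITAMs. When the receptor meets its antigen, the Src family kinases Lck, which CD4 brings to the receptor, and Fyn phosphorylate these motifs, the kinase ZAP-70 docks on them, and ZAP-70 phosphorylates the membrane adaptor LAT, on which the downstream enzymes assemble. Anti-CD3 engages this complex directly, whereas PMA and ionomycin activate protein kinase C and calcium signaling downstream of it.

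The array reads each transcript with probes of 50 bases. The probes of Cd3g and Cd3d are shown because these neighboring genes responded unequally, and that of Fyn because it was called in both genotypes upon either stimulation. They cover bases 486 to 535, 458 to 507 and 993 to 1042 of the transcripts listed for them.
Cd3g probe: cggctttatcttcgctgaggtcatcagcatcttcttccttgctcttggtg
Cd3d probe: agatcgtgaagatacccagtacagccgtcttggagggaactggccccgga
Fyn probe: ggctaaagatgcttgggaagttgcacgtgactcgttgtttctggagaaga

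Cd3g and Cd3d lie next to each other and run in opposite directions on chromosome 9, Cd3g at 44969572 to 44980431 and Cd3d at 44981769 to 44987052 in GRCm38.p6, with 1337 bases between them. Cd3e follows at 44998735 to 45009663. The other members lie apart, Cd247 at chr1:165779952-165871153, Zap70 at chr1:36761798-36782821, Cd4 at chr6:124864693-124888247, Lck at chr4:129548344-129573641, Fyn at chr10:39369743-39565381 and Lat at chr7:126363827-126369705. The 250 bases before the listed start of each neighbor, from RefSeq on GRCm38.p6, are printed 5′ to 3′ on the strand of the gene, for Cd3g chr9:44980432-44980681 on the minus strand and for Cd3d chr9:44981536-44981785 on the plus strand. The start listed for Cd3d lies inside the gene span given above, which begins at 44981769, so the last bases of its window fall within that span. Capitals mark GGAAA on either strand, the core that NFAT factors bind.
Cd3g upstream: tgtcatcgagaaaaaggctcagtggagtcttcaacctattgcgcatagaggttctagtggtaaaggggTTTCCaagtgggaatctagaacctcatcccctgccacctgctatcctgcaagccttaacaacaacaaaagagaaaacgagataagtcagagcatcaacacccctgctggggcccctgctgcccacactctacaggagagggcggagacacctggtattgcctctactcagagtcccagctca
Cd3d upstream: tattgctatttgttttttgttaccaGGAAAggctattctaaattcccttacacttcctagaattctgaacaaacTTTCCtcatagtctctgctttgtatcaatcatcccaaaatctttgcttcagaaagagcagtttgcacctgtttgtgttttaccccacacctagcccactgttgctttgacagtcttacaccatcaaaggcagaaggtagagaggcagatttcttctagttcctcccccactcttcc

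GGAAA matched 1 time before Cd3g and 2 times each before Cd3d, Cd3e and Lat. It matched 3 times at 1 of 3 starts of Zap70 and 1 time at 1 of 2 starts of Lck, but not before Cd247 or Fyn. Of the 32841 upstream windows of the same length 55.6% hold it. The AP-1 motif TGANTCA, which 6.75% of the windows hold, matched in none of the windows of the 8 members that have one, and the RUNX motif TGTGGT, which 14% hold, matched at 1 of 2 starts of Lck and 1 of 3 starts of Zap70. Both strands were searched.

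The arrays had between 8047 and 10689 probes detected, and replicate arrays of a group correlated at 0.949 to 0.989 across the kept probes. Expression is given as the log2 of the background-corrected, normalized intensity, which compares 1 probe between groups and not 1 gene with another. Among the markers of CD4+ T cells, all 5 were detected on every array, and Il4, the Th2 cytokine, rose from a mean of 6.93 in WT resting naïve to 14.02 in WT stimulated Th2 cells. Of 5 Th2 markers, 4 rose and 1 fell in WT stimulated against resting Th2 cells, beside 13.0% and 14.3% of all probes. All 5 also rose upon stimulation of WT naïve cells, beside 23.6%. In WT resting Th2 against stimulated naïve cells 1 was higher and 2 lower, beside 10.8% and 11.5%. Markers of other cells were present in the resting naïve samples. The summed intensity of 6 myeloid markers was 1326 to 6713 over the WT and 1978 to 3958 over the BAF180-deficient resting naïve arrays, with all 6 detected, and at most 457.6 over all other arrays, on none of which Lyz2 or Cd14 was detected. The summed intensity of 3 red cell markers there reached 7776 and that of 5 B cell markers 824.9. The part of these markers in the differences from resting naïve cells was not tested. The comparisons of Th2 cells with each other and with stimulated naïve cells do not use those arrays, but are not free of such markers. The B cell sum reached 972.9 in BAF180-deficient resting Th2 cells. The 1 kept CD8 T cell marker was detected on every array. Its intensity reached 369.2 in resting naïve and 752.5 in WT stimulated Th2 cells. All these sums and intensities were taken before normalization and are not corrected for the brightness of an array. After it, the CD8 marker differed by -0.59 in WT resting Th2 against resting naïve cells. In WT stimulated against resting Th2 cells it differed by -0.183, and neither was called. The B cell markers had a median difference of -0.741 in BAF180-deficient resting Th2 against resting naïve cells, with 2 of 5 called lower, beside 15.9% of all probes. In such bulk samples fewer T cells and less of a transcript per T cell cannot be told apart. No probe of Pbrm1 was analysed here, so the deletion was not checked on the array.

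**Figure D1:**
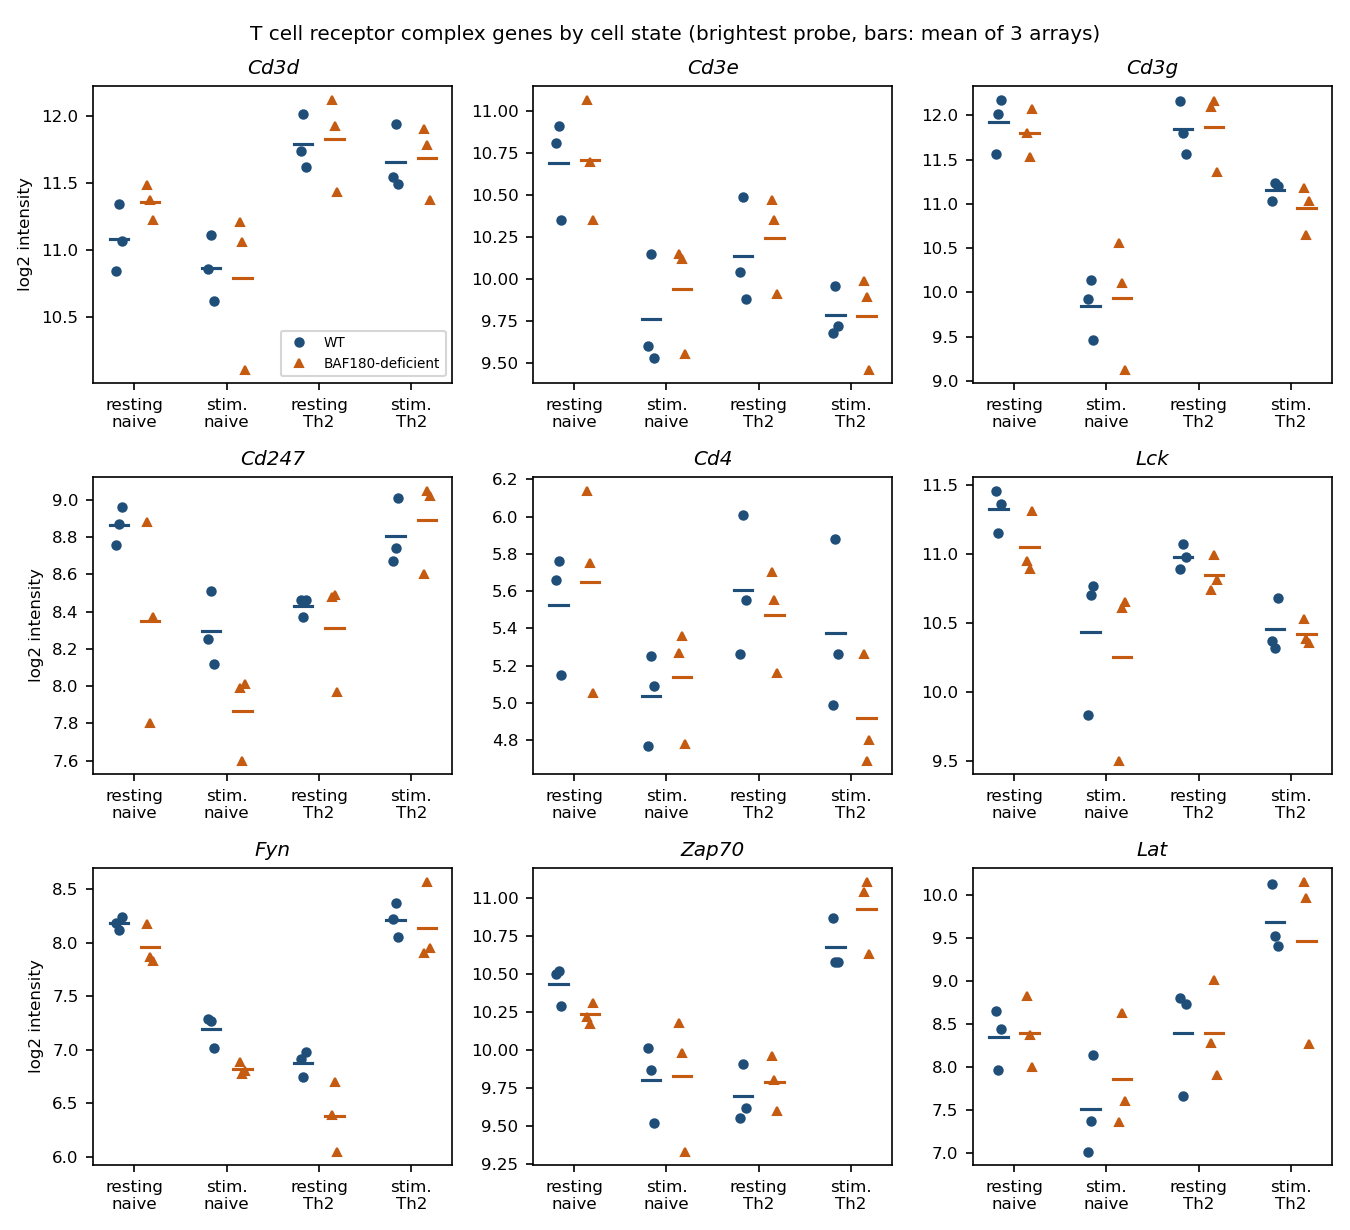
Log2 intensity of the brightest probe of each of the 9 genes (y axis, own scale in each panel) in the 4 cell states (x axis), with 1 point per array and a bar at the mean of the 3 arrays of a group. Cd3g dropped in stimulated naïve cells, and the means of Fyn and Zap70 were lowest in resting Th2 and highest in stimulated Th2 cells in both genotypes.

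Stimulation of naïve cells through the receptor lowered the normalized levels of Cd3e, Cd3g, Lck and Fyn in both genotypes. In WT cells 6 of the 9 genes, these and Cd247 and Zap70, fell at an adjusted p below 0.05 (limma, Benjamini-Hochberg over all kept probes) and none rose, against 20.0% of the 14246 kept probes that fell and 23.6% that rose. The median difference of the 9 genes was -0.846, and that of all probes 0.013. In BAF180-deficient cells 4 of the 9 fell and none rose, beside 19.3% of all probes that fell and 22.3% that rose. All 9 differences were negative in each genotype. They are relative to the other probes, as normalization gives every array the same distribution of intensities. Before normalization, the WT mean of Cd3g also fell, from 1976 to 1002, and that of Fyn went from 177.1 to 175.3. The WT means of Cd3e (797 to 932), Lck (1273 to 1541), Cd247 (263 to 347.9) and Zap70 (674.9 to 998) were higher after stimulation.

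Cd3g, the gamma chain, showed the largest drop of the 9. Its level was 11.57, 12.02 and 12.18 on the 3 WT resting naïve arrays and 9.93, 10.14 and 9.46 on the stimulated ones. The groups lay well apart. The difference was -2.08 ± 0.29 (SE, n = 3 per group), a 4.23-fold drop with an adjusted p of 6.88e-06 in limma, and in BAF180-deficient cells it was -1.87 ± 0.29 with an adjusted p of 2.71e-05.

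Cd3e, the epsilon chain that pairs with both other CD3 chains, was 10.81, 10.91 and 10.35 at rest and 9.60, 10.15 and 9.53 after stimulation in WT cells, without overlap, as for 48.2% of all probes. It fell by 0.93 in WT (adjusted p = 0.00289, limma) and by 0.76 in BAF180-deficient cells (adjusted p = 0.0123, limma). The latter call was lost without resting naïve replicate A (-0.58, adjusted p = 0.0791) or stimulated naïve replicate C (-0.57, adjusted p = 0.087).

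Cd3d, the delta chain, was 10.84, 11.34 and 11.07 at rest and 10.86, 11.11 and 10.62 after stimulation in WT cells, so that the groups overlapped. The difference was -0.22 with a 95% interval from -0.73 to 0.29. In BAF180-deficient cells it was -0.56 (adjusted p = 0.0696, limma). The groups there did not overlap, as for 48.1% of all probes, but their nearest arrays read 11.22 at rest and 11.21 after stimulation. Cd3d passed there under Z-score normalization (adjusted p = 0.043, limma) and without BAF180-deficient stimulated naïve replicate A (-0.77, adjusted p = 0.0206, limma). With a replicate block it also passed (adjusted p = 0.016, limma). Within an array, Cd3g changed unequally to its neighbor. The log2 difference of the Cd3g and Cd3d probes shifted by -1.86 in WT and -1.30 in BAF180-deficient naïve cells upon stimulation, with no overlap of the 3 and 3 arrays in either genotype. The exact two-sided permutation test gave a p of 0.1 for each, the smallest that 3 arrays against 3 allow, and this pair was compared after its values were seen.

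Cd247, which makes the zeta chain, was 8.76, 8.87 and 8.96 in WT resting and 8.25, 8.51 and 8.12 in WT stimulated naïve cells by its brightest probe. It fell by 0.57 (adjusted p = 0.0341, limma). The call was lost without WT resting naïve replicate B or C (adjusted p = 0.0726 and 0.0857) and without WT stimulated naïve replicate A or C (adjusted p = 0.0787 and 0.125), under Z-score normalization (-0.41, adjusted p = 0.114) and without the filter (adjusted p = 0.0616). The other Cd247 probes, at bases 1117 and 1132 of the transcript and with 34 bases in common, fell in WT, with differences of -0.86 and -1.24 (adjusted p = 0.00124 and 0.000314, limma). In BAF180-deficient cells the mean of the brightest probe went from 8.35 to 7.87 without a call, and that at base 1132 from 7.37 to 6.25. Cd247 passed there with the mean of its probes (-0.68, adjusted p = 0.000831, limma) and without resting naïve replicate B (-0.76, adjusted p = 0.00507, limma).

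Lck, the kinase that CD4 carries, was 11.46, 11.15 and 11.36 in WT resting and 9.83, 10.70 and 10.77 in WT stimulated naïve cells. It dropped by 0.89 in WT (adjusted p = 0.00631, limma) and by 0.80 in BAF180-deficient cells (adjusted p = 0.0133), and single arrays decided both calls. Without WT stimulated naïve replicate A the difference was -0.59 (adjusted p = 0.0588), and without BAF180-deficient stimulated naïve replicate A it was -0.43 (adjusted p = 0.117). The latter call also ended without BAF180-deficient resting naïve replicate C (-0.67, adjusted p = 0.0622) and when only the groups compared were fitted (adjusted p = 0.0949).

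Fyn, the other Src family kinase, was 8.18, 8.12 and 8.24 in WT resting and 7.29, 7.27 and 7.02 in WT stimulated naïve cells. The replicates lay close together and the groups far apart. Fyn fell by 0.98 in WT (adjusted p = 8.75e-05, limma) and by 1.14 in BAF180-deficient cells (adjusted p = 1.81e-05). Of the other Fyn probes, that at base 2860 was detected on 2 of 24 arrays and that at base 3182 on none, and neither was read.

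Zap70, which docks on the phosphorylated chains, was 10.50, 10.52 and 10.29 in WT resting and 10.01, 9.87 and 9.52 in WT stimulated naïve cells. It fell by 0.64 in WT (adjusted p = 0.00951, limma), a call lost without WT stimulated naïve replicate C (-0.50, adjusted p = 0.0663) and with the mean of its probes (-0.35, adjusted p = 0.159), and differed by -0.41 in BAF180-deficient cells (adjusted p = 0.0948). Its probe at base 20 of its listed transcript differed by -0.04 in WT, with an interval from -0.74 to 0.67, so the probes of Zap70 did not show the same drop.

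Lat and Cd4 did not pass the test. Lat, the adaptor, was 8.65, 7.97 and 8.45 at rest and 7.02, 7.37 and 8.14 after stimulation in WT cells, a difference of -0.85 with an interval from -1.79 to 0.10. Cd4 was read by 1 dim probe with log2 levels between 4.69 and 6.14 over all arrays, and differed by -0.49 in WT (interval -1.07 to 0.09).

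**Figure D2:**
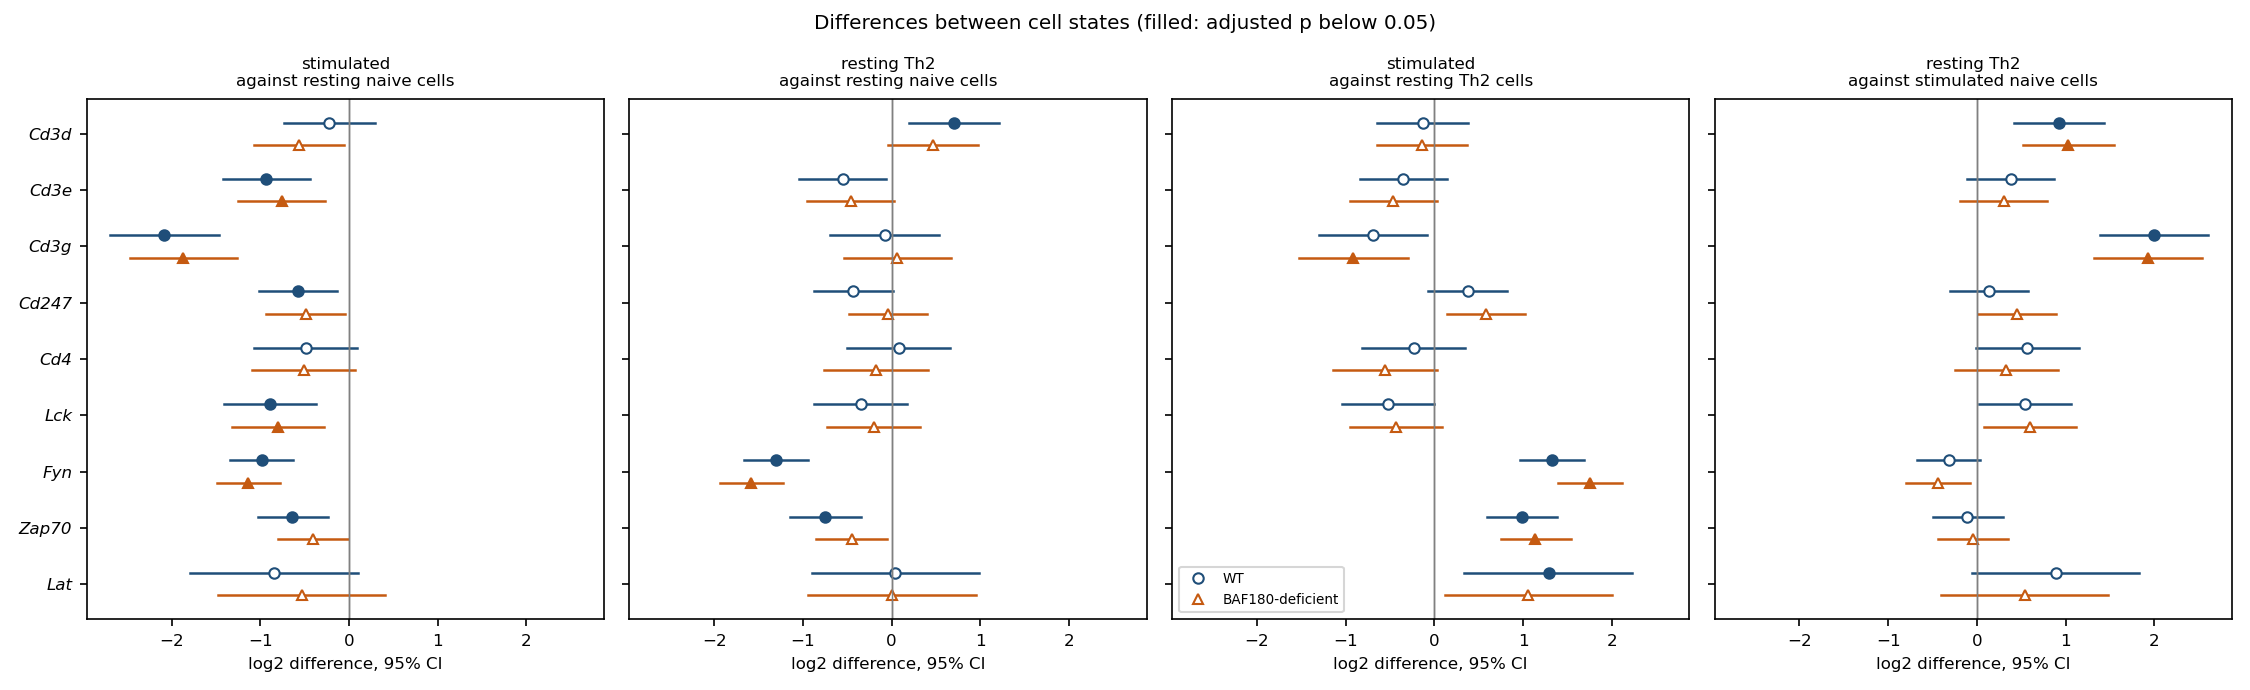
Log2 differences between cell states with 95% confidence intervals (x axis) for the 9 genes (y axis), WT as circles and BAF180-deficient as triangles, filled where the adjusted p was below 0.05. In the first panel every point lies left of 0, and in the third Fyn, Zap70 and Lat lie right of 0.

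Resting Th2 cells, which had been through the receptor stimulus and then grown in IL-2, were compared with the resting naïve cells they came from. In WT cells 1 of the 9 genes was higher, Cd3d, and 2 were lower, Fyn and Zap70. Of all probes 18.4% were higher and 16.0% lower. In BAF180-deficient cells none of the 9 was higher and Fyn was lower, beside 18.8% and 15.9% of all probes.

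Fyn was 6.91, 6.75 and 6.98 in WT resting Th2 cells, below every WT naïve array, resting or stimulated. The difference from resting naïve cells was -1.30 ± 0.17 (SE, n = 3 per group; adjusted p = 6.09e-06, limma) in WT and -1.58 ± 0.17 (adjusted p = 4.87e-07) in BAF180-deficient cells. Zap70 was 9.55, 9.91 and 9.62 in WT resting Th2 cells and lower than in resting naïve cells, with a difference of -0.75 (adjusted p = 0.00451, limma). That call was lost with the mean of its probes (-0.51, adjusted p = 0.054), and the probe at base 20 differed by -0.28 (adjusted p = 0.572). In BAF180-deficient cells the value was -0.45 (adjusted p = 0.0729).

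Cd3d was 11.74, 12.01 and 11.62 in WT resting Th2 cells, all above its 3 resting naïve arrays, and higher by 0.70 (adjusted p = 0.0296, limma). That call was lost without WT resting naïve replicate A (0.58, adjusted p = 0.122) or C (adjusted p = 0.0567), without WT resting Th2 replicate A (adjusted p = 0.0581) or B (0.60, adjusted p = 0.109), under Z-score normalization (0.30, adjusted p = 0.575) and without the filter (adjusted p = 0.0586). Cd3g stood at 12.16, 11.80 and 11.57 in WT resting Th2 cells, and its difference from resting naïve cells was -0.08 with an interval from -0.69 to 0.53. Against stimulated naïve cells it was higher by 2.00 in WT (adjusted p = 3.5e-05, limma) and 1.93 in BAF180-deficient cells (adjusted p = 5.94e-05).

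In that comparison of resting Th2 with stimulated naïve cells, Cd3g and Cd3d were the 2 of 9 genes higher in each genotype and none was lower. Of all probes 10.8% were higher and 11.5% lower in WT, and 10.2% and 10.3% in BAF180-deficient cells. Cd3d was higher by 0.93 in WT (adjusted p = 0.00806, limma) and 1.03 in BAF180-deficient cells (adjusted p = 0.0039). Both calls of Cd3d were lost under Z-score normalization (0.95 and 0.74, adjusted p = 0.0904 and 0.207), and the latter also when only the groups compared were fitted (adjusted p = 0.0765). Comparisons that share the stimulated or the resting naïve arrays are not independent of each other.

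The probes of Cd247 disagreed in resting Th2 cells. The brightest gave -0.43 against resting naïve cells in WT, with an interval from -0.87 to 0.01. The probe at base 1132 was 7.93, 7.71 and 7.17 in WT resting naïve and 5.97, 5.87 and 5.58 in WT resting Th2 cells, a fall of 1.80 (adjusted p = 9e-06, limma). In BAF180-deficient cells the same pair of probes gave -0.04 and -1.45 (adjusted p = 0.915 and 0.000109), the former turning to 0.11 under Z-score normalization. Cd247 is therefore described by probe and not by 1 value in this comparison.

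**Figure D3:**
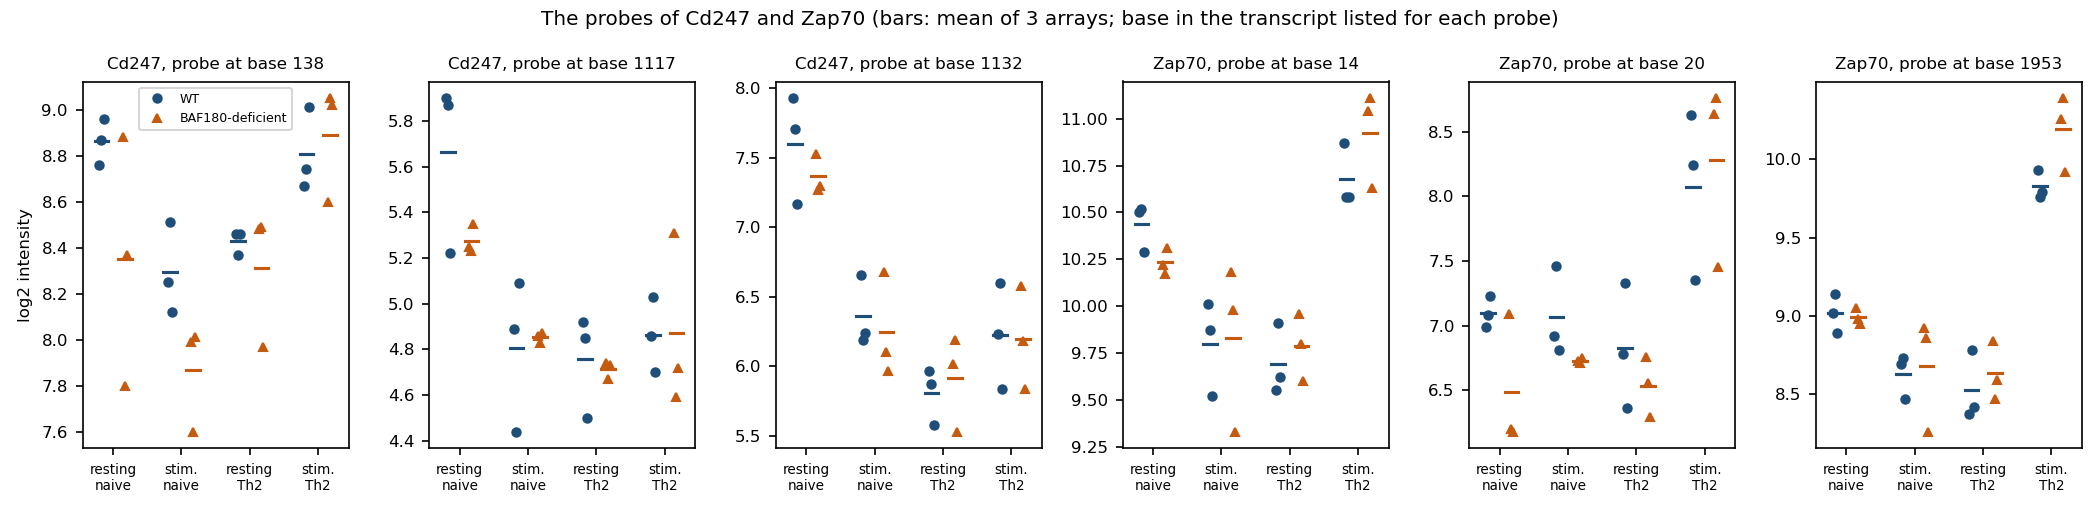
Log2 intensity (y axis, own scale in each panel) of the 3 probes of Cd247 and the 3 of Zap70 in the 4 cell states (x axis), 1 point per array with a bar at the mean of 3. The Cd247 probes at bases 1117 and 1132 stayed below all WT resting naïve arrays in WT stimulated Th2 cells, unlike that at base 138, and the means of all 3 Zap70 probes were highest in stimulated Th2 cells.

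Treatment of Th2 cells with PMA and ionomycin raised the kinases Fyn and Zap70 in both genotypes. In WT cells Fyn, Zap70 and Lat, 3 of the 9 genes, rose and none fell, against 13.0% of all probes that rose and 14.3% that fell. In BAF180-deficient cells Fyn and Zap70 rose and Cd3g fell, beside 12.0% and 13.8% of all probes.

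Fyn rose from 6.91, 6.75 and 6.98 to 8.22, 8.37 and 8.05 in WT Th2 cells within 1.5 h. The difference was 1.33 ± 0.17 (SE, n = 3 per group), or 2.51-fold, with an adjusted p of 5.55e-06 in limma. In BAF180-deficient cells Fyn was 6.39, 6.70 and 6.05 at rest and 7.90, 8.57 and 7.95 after treatment, higher by 1.76 ± 0.17 (adjusted p = 1.95e-07). The stimulated level was close to that of resting naïve cells in both genotypes, at means of 8.21 and 8.18 in WT.

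Zap70 rose from 9.55, 9.91 and 9.62 to 10.87, 10.58 and 10.58 in WT cells. All of its 3 probes rose in both genotypes, by 0.99, 1.25 and 1.30 in WT and by 1.14, 1.75 and 1.56 in BAF180-deficient cells. Of these probes, the one at base 14 and that at base 1953 share 36 bases, so they are not separate readings of the transcript.

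Lat was 8.80, 7.67 and 8.73 in WT resting and 10.13, 9.53 and 9.41 in WT stimulated Th2 cells. It rose by 1.29 ± 0.45 (SE, n = 3 per group; adjusted p = 0.0388, limma). Leaving out WT resting Th2 replicate B (0.92, adjusted p = 0.204), WT stimulated Th2 replicate A (1.07, adjusted p = 0.155) or replicate B (1.37, adjusted p = 0.0644) ended the call, as did leaving out the filter (adjusted p = 0.0953). In BAF180-deficient cells the difference was 1.06 (adjusted p = 0.0958), and 1.66 without stimulated replicate C, which read 8.27 against 10.16 and 9.97 on the others (adjusted p = 0.00648).

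Of the other members, Cd3g passed the test in BAF180-deficient cells. It was 11.03, 11.24 and 11.20 in WT stimulated Th2 cells, below all 3 resting arrays, with a difference of -0.69 (adjusted p = 0.0897, limma) that passed when only the groups compared were fitted (adjusted p = 0.0231). In BAF180-deficient cells it fell by 0.91 (adjusted p = 0.0246), and this call was lost without resting Th2 replicate A (-0.80) or B (-0.77) or stimulated Th2 replicate B (-0.76), under Z-score normalization (-0.51, adjusted p = 0.28) and without the filter (adjusted p = 0.0566). Lck differed by -0.52 in WT and -0.43 in BAF180-deficient cells (adjusted p = 0.138 and 0.246, limma). Its arrays did not overlap in either genotype, as was so for 40.3% of all probes in WT and 42.9% in BAF180-deficient cells. Lck passed in both when only the groups compared were fitted (adjusted p = 0.0281 and 0.0306, limma). Cd3d differed by -0.13 and -0.14 and Cd3e by -0.35 and -0.46 in WT and BAF180-deficient cells, none of which passed the test. Under Z-score normalization the BAF180-deficient value of Cd3d turned to 0.27.

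The responses of naïve and of Th2 cells were compared directly in WT cells, as the difference of the differences. For 5 of the 9 genes the naïve response was lower than the Th2 response at an adjusted p below 0.05, while 25.0% of all probes passed in either direction. The values were -2.31 ± 0.24 for Fyn (adjusted p = 5.45e-07, limma), -1.62 ± 0.27 for Zap70 (adjusted p = 0.000128), -2.13 ± 0.64 for Lat (adjusted p = 0.0177), -1.39 ± 0.41 for Cd3g (adjusted p = 0.0166) and -0.95 ± 0.30 for Cd247 (adjusted p = 0.0241). Fyn and Zap70 passed the test in opposite directions in the 2 responses, whereas Cd3g fell in the naïve response and differed by -0.69, without a call, in that of Th2 cells. The agents, the duration of 24 h against 1.5 h and the cell type all differed between the responses and cannot be told apart. Without WT stimulated naïve replicate C 3 of the 5 genes passed, Cd3g and Cd247 being lost (-1.20 and -0.86). Cd247 was also lost without WT stimulated Th2 replicate C (-0.84) and under Z-score normalization (-0.77), and Lat without WT resting Th2 replicate B (-1.77) or stimulated Th2 replicate A (-1.91).

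The order of the states was the same in both genotypes for Cd3d, Lck, Fyn, Zap70 and Lat. For Fyn and Zap70 it ran from stimulated Th2 through resting naïve and stimulated naïve to resting Th2 cells. The top neighbors of Fyn in this order, at WT means of 8.21 and 8.18, lay within their spread, and stimulated naïve and resting Th2 cells did not differ at the test for either gene. For Lat it ran from stimulated Th2 through resting Th2 and resting naïve to stimulated naïve cells, with the resting states at 8.40 and 8.36 in WT.

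The loss of BAF180 was compared in each state with the thresholds of the study's methods. They were applied to the normalized log2 values with p and FDR from limma, not to the study's own Z-scores and test. The rule asks for a Z-ratio (the difference over the SD of all differences) beyond 1.5, a positive mean signal, here of the log2 values, p below 0.05 and FDR below 0.3. None of the 9 genes was called in any state, while 0.681% of all probes were in resting naïve, 0.112% in stimulated naïve, 0.0842% in resting Th2 and 0.0913% in stimulated Th2 cells. The study reported many more affected genes, and more of them in differentiated than in naïve cells. The calls made here are therefore not those of the study. At an unadjusted p below 0.05 there was 1 gene in each of the first 3 states and none in the fourth, beside 6.83%, 2.25%, 3.43% and 2.79% of all probes in limma. The intervals of the 9 genes reached from -0.95 to 0.99 in resting naïve, -0.87 to 1.30 in stimulated naïve, -0.94 to 0.95 in resting Th2 and -1.17 to 0.72 in stimulated Th2 cells, with Lat the widest.

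By the brightest probes, Fyn in resting Th2 cells had the lowest unadjusted p of the 9 genes over the 4 states, and Cd247 in resting naïve cells the lowest adjusted p. In resting Th2 cells the BAF180-deficient arrays at 6.39, 6.70 and 6.05 all lay below the WT arrays, a difference of -0.50 ± 0.17 (unadjusted p = 0.00857, adjusted p = 1, limma). In stimulated naïve cells 6.89, 6.77 and 6.80 stood below 7.29, 7.27 and 7.02, a difference of -0.37 (unadjusted p = 0.0412, adjusted p = 1, limma). In stimulated Th2 cells it was -0.07 with overlap of the groups. Of all probes, 10.1% did not overlap between the genotypes in resting Th2 and 6.46% in stimulated naïve cells.

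Cd247 read 8.88, 7.80 and 8.37 in BAF180-deficient resting naïve cells against 8.76, 8.87 and 8.96 in WT. The groups overlapped through replicate A, and the difference was -0.51 (unadjusted p = 0.0255, adjusted p = 0.656, limma). Without BAF180-deficient resting naïve replicate A it was -0.77 and met the criteria. The Cd247 probes at bases 1117 and 1132 had means of 5.28 and 7.37 there, against 5.66 and 7.61 in WT. In the same state the Zap70 probe at base 20 differed by -0.61 (means 6.49 and 7.10), with overlapping groups. The other Zap70 probes had means of 10.23 against 10.44 and 8.99 against 9.02 in WT. Cd4, whose promoter and enhancer sequences drive the Cre, differed between genotypes by 0.12, 0.10, -0.14 and -0.46 in the 4 states in the order above, each with overlapping groups.

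**Figure D4:**
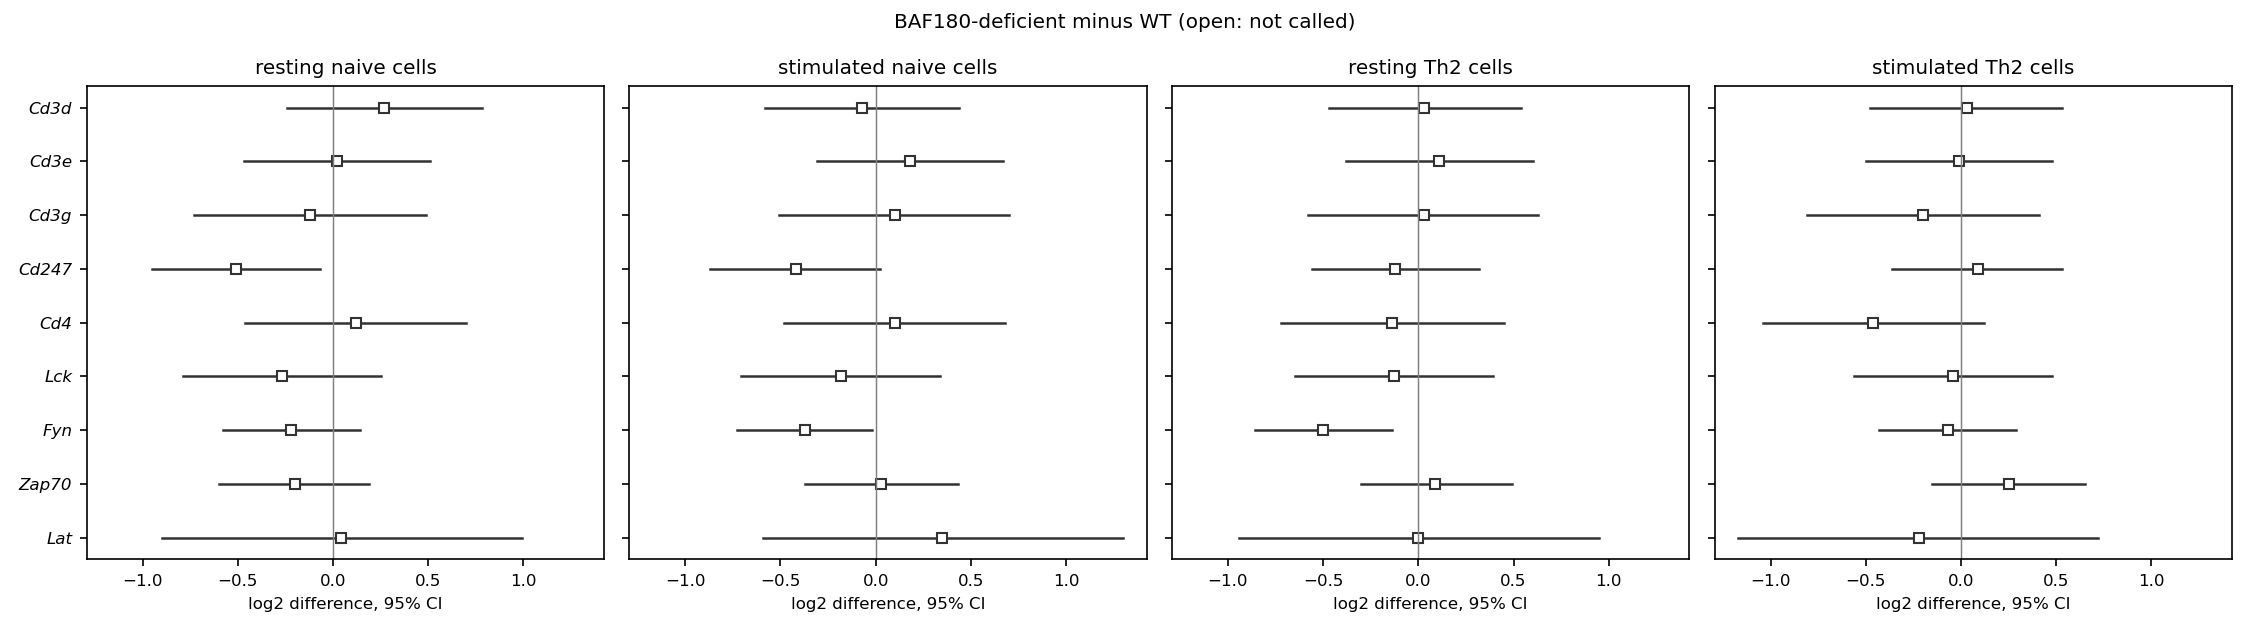
Log2 difference of BAF180-deficient minus WT cells with its 95% confidence interval (x axis) for the 9 genes (y axis) in each cell state. All symbols are open because no gene was called, and the intervals of Cd247 in resting naïve cells and of Fyn in stimulated naïve and resting Th2 cells lie left of 0.

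Whether the loss of BAF180 changed a difference between states was tested as an interaction. None of the 9 genes passed at an adjusted p below 0.05 for stimulated against resting naïve cells, resting Th2 against resting naïve cells, stimulated against resting Th2 cells or resting Th2 against stimulated naïve cells, where 0.00702%, 0.00702%, 0% and 0% of all probes did. None passed at an unadjusted p below 0.05 either, beside 2.31%, 2.72%, 1.80% and 1.17% of all probes in limma. The value nearest to the threshold was that of Fyn in the Th2 response, 0.43 ± 0.24 (unadjusted p = 0.0902).

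The partners of the complex were followed in the same fit. Of the adaptors and enzymes that gather on LAT and SLP-76, 20 of 22 were kept, and upon stimulation of WT naïve cells 11 fell and none rose, with a median of -0.681, beside 20.0% of all probes that fell and 23.6% that rose. Fyb, an adaptor that links the receptor to integrins, was among them with a difference of -2.75, as were Pik3r1, a regulatory subunit of PI3-kinase, with -2.40, and Rasgrp1, which activates Ras, with -2.19. In BAF180-deficient cells 11 of the 20 fell and none rose. In stimulated against resting WT Th2 cells 9 fell and 3 rose, with a median of -0.463, while 14.3% of all probes fell and 13.0% rose. Fyb, Rasgrp1, Pik3r1 and Prkcq, the protein kinase C of T cells, fell, with differences of -2.26, -2.01, -1.92 and -1.75, while Sh2d2a, an adaptor that binds Lck, Lcp2, which encodes SLP-76, and Bcl10, an adaptor of NF-κB signaling, rose by 1.68, 1.03 and 0.70.

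Between resting Th2 and resting naïve WT cells, 2 of these 20 genes were higher and 3 lower, shares no larger than the 18.4% and 16.0% of all probes. Themis, an adaptor best known from thymocytes, was higher by 1.63 and Nck1 by 1.10. Pik3r1 and Bcl10 were among the lower ones, with differences of -1.48 and -1.13. Against stimulated naïve cells 9 of the 20 were higher in resting Th2 cells and none lower, beside 10.8% and 11.5% of all probes.

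Of the negative regulators of proximal signaling, 15 of 18 were kept. Upon stimulation of WT naïve cells 9 fell and 1 rose, with a median of -0.995, against the 20.0% and 23.6% of all probes. Dgka, which removes the lipid messenger diacylglycerol, Sit1, a membrane adaptor, Dok2 and Lime1 fell, with differences of -3.01, -2.51, -2.01 and -1.89. Cblb, a ubiquitin ligase that restrains the receptor, rose by 0.86. In stimulated WT Th2 cells 7 fell and 3 rose against resting ones, where 14.3% and 13.0% of all probes did. Sit1, Dok2, Csk, the kinase that silences Lck, and Dgka fell, with differences of -1.83, -1.52, -1.27 and -1.27, and Ptpn22, a phosphatase acting on Lck, Cblb and Sla, which lowers receptor levels, rose by 1.46, 1.04 and 1.03. In resting Th2 against resting naïve cells 6 were lower and 1, Ubash3a, was higher by 0.77, beside 16.0% of all probes lower and 18.4% higher. Pag1, which anchors Csk, was lower there with a difference of -1.28 and Ptpn6 with -1.16.

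Of 11 receptor and coreceptor partners 6 were kept. Cd2 and Ptprc, the phosphatase CD45, fell upon stimulation of WT naïve cells, with differences of -0.60 and -0.87, and Cd6 was lower in resting Th2 than in resting naïve cells, with a difference of -1.24. None of the 6 passed in stimulated against resting WT Th2 cells. Fcer1g, an ITAM chain of Fc receptors that can stand in for zeta, was lower in stimulated than in resting naïve WT cells, with a difference of -4.69, and it is also 1 of the 6 myeloid markers that were high in the resting naïve arrays. No gene of these lists was called between the genotypes in any state. The study, by its own normalization and test, lists Cd28, which is in the partner list, as apparently activated by BAF180 in Th2 cells. That result was not reproduced by the calls made here.

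**Figure D5:**
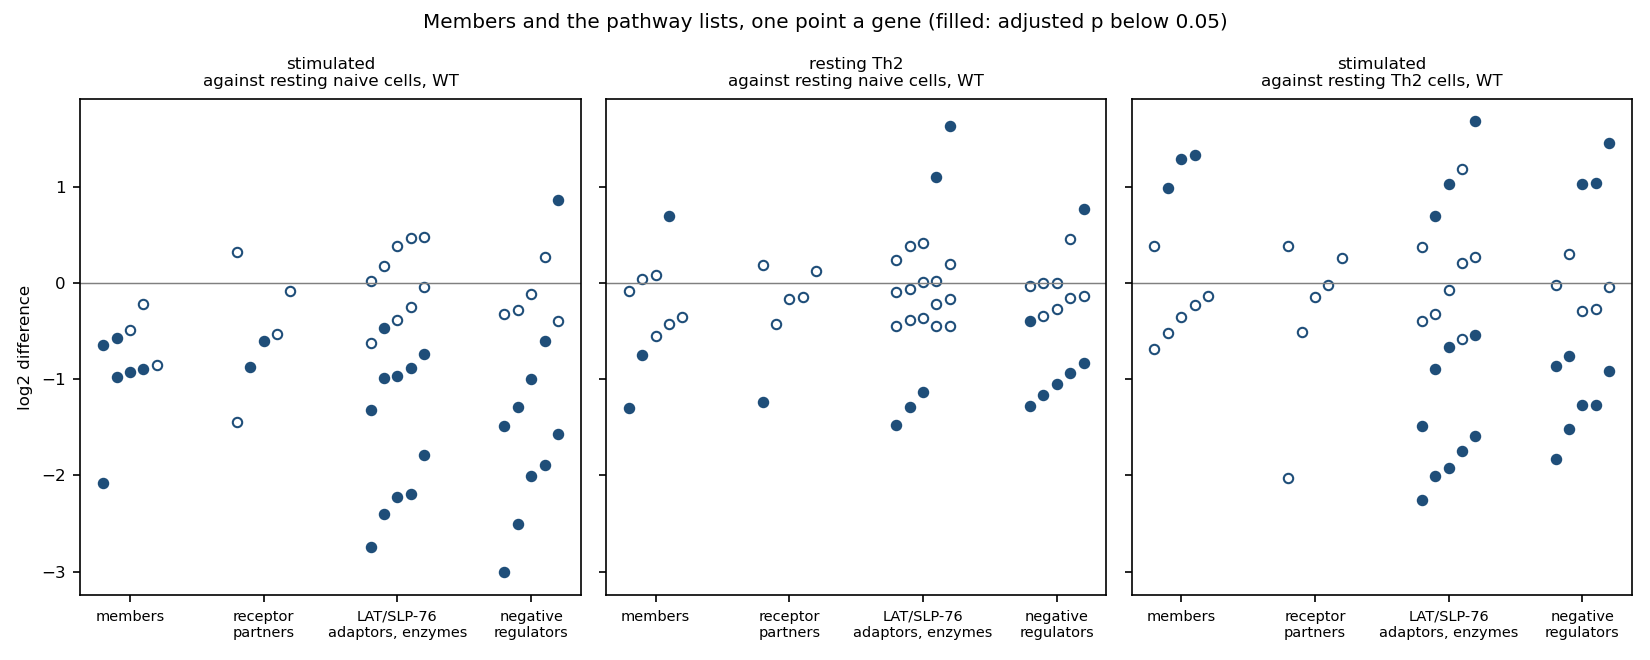
Log2 difference (y axis) in WT cells for 3 comparisons of states, with 1 point per gene for the 9 members and for the kept genes of 3 pathway lists (x axis), filled where the adjusted p was below 0.05. In the first panel 6 members and 11 adaptors and enzymes fell, and in the third filled points stand on both sides of 0.

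The genes whose means over the 8 groups ran most like those of a member were taken from 10624 probes detected on all arrays of at least 1 group. For Cd3g these were Ltb and Itgb7 (Pearson's r = 0.996 and 0.992), for Lat Tespa1 and Mapk11 (0.995 and 0.986), for Fyn Fbxo34 and LOC654842 (0.974 and 0.972), for Zap70 Rgs1 and Ndor1 (0.976 and 0.974), and for Cd3d Vim and Anxa2 (0.986 and 0.984). For Cd3e they were Smarca2 and Afmid (0.995 and 0.994), for Lck Klhl17 and Gtpbp2 (0.992 and 0.990), for Cd247 Zhx1 and Ptprc (0.957 and 0.953), and for Cd4 Cpa3 and Prkx (0.967 and 0.935). These are correlations over 8 group means of the same arrays, and 8.22% of the probes exceeded 0.9 with Cd3e but 0.188% with Cd247.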

How the data were processed

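The authors deposited, for each of 25697 probes on 24 Illumina MouseRef-8 v2 arrays, the bead intensity from GenomeStudio (version 1.6.0 in the submitters' processing notes), neither normalized nor background-subtracted, and a detection p-value against negative control probes. Intensities were background-corrected, quantile-normalized and log2-transformed with neqc (limma 3.58.1, R 4.3.3, offset 16). Probes never reaching a detection p of 0.02 on any array were dropped, which left 14246. Symbols were updated through GRCm38.p6 by Entrez ID (16938 probes) or RefSeq accession (7420), and 1339 kept the symbol of the table.

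All arrays entered 1 limma model (lmFit and eBayes) with a mean for each of the 8 groups, and p-values were adjusted over all kept probes by the Benjamini-Hochberg method. The FDR and p of the methods' criteria were taken from limma. The members, the pathway and marker lists and the tests were chosen with earlier results of these data known. Named were every member, up to 4 called genes per list, direction and WT comparison with the largest change, any list gene called between genotypes, and 2 genes most like each member. Other genes were named after their values were seen, and 1 gene that the rule names is not reported here. With 3 arrays per group, their number limits the precision.

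The study describes pairs of mice, but neither it nor the labels say that the replicate letters mark them. Deviations of same-letter arrays from their group means correlated at -0.00263 to 0.662 between genotypes (10 of 12 pairs above 0.1) and at -0.00917 to 0.427 between states (16 of 24). Pooled over the states, the correlation between genotypes was 0.301, 0.136 and 0.516 for letters A, B and C. Since no label ties the letters to mice and not every pair exceeded 0.1, the letters were not taken as pairs in the main fit. A cut of 0.1 cannot decide whether the arrays were paired, so the main genotype tests may leave a pairing unused. The alternatives were Z-score normalization, no background correction, no filter, only the groups compared, a replicate block, the mean of the probes of a gene, the other call rule and each array left out.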

Additional observations from a re-analysis of the deposited data

Results flagged for a closer look

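For 5 genes the response to stimulation differed between naïve and Th2 cells by the test of the difference itself (limma, 3 WT arrays per group). The naïve response minus the Th2 response was -2.31 for Fyn, -2.13 for Lat, -1.62 for Zap70, -1.39 for Cd3g and -0.95 for Cd247 on the log2 scale. The stimuli and their durations also differed. Groups of 3 arrays are too small to test single arrays as outliers.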

How the results depend on the processing

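Of 29 called differences of the members, 0 turned sign over 402 alternative settings and 52 settings ended a call. Of 55 differences that were not called, 31 settings turned the sign and 34 brought a call. The causes were not tested, apart from the smaller number of arrays when one is left out.

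Under the rule for genotypes, which asks for a larger difference, 1 gene fell upon naïve stimulation in each genotype, 0 were higher and 1 lower in WT resting Th2 than resting naïve cells, 0 fell in BAF180-deficient stimulated Th2 cells, and 1 was higher in WT resting Th2 than stimulated naïve cells. Of all 14246 probes, in either direction, this rule called 1672 upon WT and 1722 upon BAF180-deficient naïve stimulation, against 6213 and 5926. In the other comparisons, in the same order, it called 1414, 1452 and 1572, against 4906, 3677 and 3178. Under Z-score normalization 0 were higher and 4 lower in WT, and 3 lower in BAF180-deficient, resting Th2 than resting naïve cells, and 1 was higher than in stimulated naïve cells in each genotype. Against resting naïve cells it called 4750 probes in WT and 5423 in BAF180-deficient cells, where the main setting called 4906 and 4940. Against stimulated naïve cells it called 2828 and 2739, where the main setting called 3178 and 2921. Without the filter 0 were higher in WT resting Th2 than resting naïve cells and 0 fell in BAF180-deficient stimulated Th2 cells. Of the 25697 probes then tested, 4597 and 3321 were called in these 2 comparisons, against 4906 and 3677 of 14246. With the groups compared alone, 2 fell in stimulated Th2 cells of each genotype, and in BAF180-deficient resting Th2 cells 2 were lower than in resting naïve cells and 1 higher than in stimulated naïve cells. Over all probes, the calls in stimulated Th2 cells were then 3773 in WT and 3901 in BAF180-deficient cells, against 3889 and 3677. Those in BAF180-deficient resting Th2 cells were 4515 against resting and 2537 against stimulated naïve cells, where the main setting called 4940 and 2921. With the mean of the probes, 2 were lower in BAF180-deficient resting Th2 than resting naïve cells, where 3845 of all 10497 genes were called in either direction.

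With the letters as a replicate block, 1 gene was higher and 3 lower in BAF180-deficient resting Th2 than resting naïve cells, and 2 fell in BAF180-deficient stimulated Th2 cells, Cd3e being added (-0.46, adjusted p = 0.0301). The block also added Cd3d (-0.56, adjusted p = 0.016) and Zap70 (-0.41, adjusted p = 0.0396) to the genes that fell upon BAF180-deficient naïve stimulation, 6 in all, and Cd3e (-0.55, adjusted p = 0.00809) to those lower in WT resting Th2 than resting naïve cells. Over all probes the block moved the calls upon naïve stimulation from 6213 to 6518 in WT and from 5926 to 6233 in BAF180-deficient cells. Between resting Th2 and resting naïve cells it moved them from 4906 to 5283 in WT and from 4940 to 5359 in BAF180-deficient cells. In BAF180-deficient stimulated Th2 cells they went from 3677 to 3968. Of 24 arrays, 13 correlated best with an array of their own letter. The rule called 17, 3, 12 and 7 probes between genotypes under Z-score normalization, in the order of the states above, and 122, 23, 17 and 18 with the block, against 97, 16, 12 and 13.

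Leaving out 1 array at a time gave 0 to 1 genes higher in WT resting Th2 than resting naïve cells, 0 to 1 that fell in BAF180-deficient stimulated Th2 cells, 0 to 1 lower in BAF180-deficient resting Th2 than stimulated naïve cells, 0 to 1 called between genotypes in resting naïve cells, and 3 to 5 for the difference of the responses.

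Signs that turned belong to differences not called. In resting Th2 against resting naïve BAF180-deficient cells, Z-score normalization gave -0.26 for Cd3d, -0.74 for Cd3g, 0.11 for Cd247 and 0.10 for Cd4, and in stimulated against resting Th2 cells of that genotype 0.27 for Cd3d. The mean of the probes gave -0.15 (WT) and -0.009 (BAF180-deficient) for Cd247 in resting Th2 against stimulated naïve cells. With 1 array left out, resting Th2 against resting naïve cells ranged in WT from -0.26 to 0.05 for Cd3g, -0.12 to 0.25 for Cd4 and -0.16 to 0.41 for Lat, and in BAF180-deficient cells from -0.08 to 0.32 for Cd3g, -0.31 to 0.23 for Cd247, -0.47 to 0.07 for Cd4 and -0.30 to 0.25 for Lat. The range was -0.33 to 0.019 for Cd3d in the BAF180-deficient Th2 response, -0.29 to 0.13 for Zap70 in BAF180-deficient resting Th2 against stimulated naïve cells, and -0.21 to 0.05 for Cd3d in the difference of the responses. Dim probes such as that of Cd4 lie close to background, which limits what they can show.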
